A study of Sus scrofa with 12 samples.

Results

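Class j lncRNAs are transcripts that the authors assembled from testis RNA and that carry the class code j, given when an assembled transcript shares at least 1 splice junction with a reference transcript but has another chain of exons. Members were taken by that code from the authors' file of assembled lncRNAs and matched by transcript identifier to the lncRNA expression table. The code was carried by 281 of the 1424 assembled lncRNAs and of the 10706 lncRNAs in the table, and each of the 281 had its values there. The other assembled lncRNAs were 560 intergenic transcripts (class u), 288 antisense transcripts (class x), 212 transcripts inside introns (class i) and 83 with another overlap with exons (class o). Known lncRNAs made up the other 9282.

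The study compared testes of Hezuo pigs, a small Chinese breed that matures early, with testes of Landrace pigs. Groups of 3 boars each were castrated for sampling, which gave 12 libraries of total RNA: Hezuo at 30 days (Ha), Hezuo at 120 days (Hb), Landrace at 30 days (La) and Landrace at 120 days (Lb). The libraries were strand-specific and were made after removal of ribosomal RNA, and each boar gave a single library. The labels name no sequencing batch, and breed cannot be told apart from anything else that differed between the animals of the breeds.

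A transcript of class j is an isoform of a known locus, made by skipping, adding or extending exons or by use of another first or last exon. Testis is known for many lncRNAs and for many tissue-specific isoforms, and much of that diversity appears in meiotic and postmeiotic germ cells. At puberty the seminiferous cords, which hold Sertoli cells and spermatogonia, fill with spermatocytes and spermatids, so the make-up of the tissue changes with age.

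Estimated counts in the mRNA table summed to between 17165519 and 23758931 per library over 21674 mRNAs. Those in the lncRNA table were far fewer. They summed to 502340, 610188 and 633664 in the Ha libraries and to 654025, 767783 and 540920 in the Hb libraries. The totals were 595622, 527499 and 496269 in the La libraries and 692856, 702851 and 639036 in the Lb libraries. Transcript counts are estimates: reads from an exon that a member shares with its host gene were divided between them by the authors' tool, and the error of that division is not in the files. Intervals and lower bounds given here cover counting error only, and a lower bound stands for 3 counts over the 3 libraries of a group.

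Members were set against RefSeq genes by position. Each of the 271 members placed on a chromosome of Sscrofa11.1 overlapped the span of a RefSeq gene, and 10 members lay on unplaced scaffolds. A shared junction implies such an overlap, so the overlap is no separate check of the class code. A candidate host was a RefSeq gene whose span reached both exons beside at least 1 intron of the member. A single candidate was found for 212 members, several for 49 and none for 10. The reference tables hold neither exons nor strands, so whether the junction itself was shared could not be read, and a candidate may lie on the opposite strand. The 5′ and 3′ ends of a host are named here in the direction of the member. The tissue label was checked against lists of cell markers in the mRNA table: no gene of the lists for spermatogonia, Sertoli cells, Leydig cells or other testis cells was at 0 in all libraries of any group.

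The members came from 225 genes of the assembly, of which 45 held 2 or more members and none held more than 4. No member lay on chromosome Y and 3 lay on chromosome X: MSTRG.24113.2 and MSTRG.24113.3 at LOC102165633, and MSTRG.24286.1 at CT83, a cancer/testis antigen gene. These 3 were chosen after their values were seen. Members on the plus strand numbered 123.

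Class j transcripts had a median of 4 exons, with a 95% interval of the median from 4 to 4 and a range from 2 to 12. The medians were 3 exons in class u, 3 in class x, 2 in class i and 2 in class o. Only 40 members (14.2%) had 2 exons, against 49.6% of class u, 42.7% of class x, 58.5% of class i and 59.0% of class o. Median transcript length was 1185 nt (95% interval 1068 to 1315), with a range from 279 to 17491 nt. It was 929.5 nt in class u, 1034.5 nt in class x, 987.5 nt in class i and 2095 nt in class o, which was longer. The median genomic span was 20936 bp (95% interval 16029 to 27545), against 7602.5 bp in class u, 8022 bp in class x, 5484 bp in class i and 13201 bp in class o. These intervals treat transcripts as independent, which isoforms of 1 gene are not, and the differences between classes were not tested. A NONCODE identifier was attached to 229 members (81.5%), against 62.9% of class u, 64.6% of class x, 65.1% of class i and 72.3% of class o.

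Of the 212 members with a single candidate host, 77 lay in 62 protein-coding genes and 135 in 110 lncRNA genes. Members with a coding host mostly stayed within it: 59 lay inside the host's span, 12 ran past its 3′ end only, 5 past its 5′ end only and 1 past both ends. Of the members with an lncRNA host, 64 lay inside, 37 ran past the 3′ end only, 24 past the 5′ end only and 10 past both. The difference between the groups of hosts was not tested. The members with several candidates comprised 36 with coding and lncRNA candidates, 5 with coding candidates only and 8 with lncRNA candidates only.

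Every member had a count of at least 1 in some library, 278 reached a count of 10 somewhere, and 98 had a count in each of the 12 libraries. The number of members with a count was 175, 174 and 176 in Ha and 169, 164 and 168 in La. It was 261, 257 and 258 in Hb and 262, 256 and 258 in Lb. The 30-day and 120-day libraries did not overlap in this number. All 6 libraries of 30 days were at 0 for 42 of the 281 members, against 204 of 560 in class u, 102 of 288 in class x, 95 of 212 in class i and 8 of 83 in class o. All 6 libraries of 120 days were at 0 for 1 member, MSTRG.11385.1, which was chosen after its values were seen. It lay inside TMEM225B, a gene for a membrane protein, and had 0.10, 0.57 and 0.00 FPKM in Ha and 0.16, 0.45 and 0.22 FPKM in La.

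Levels per length were read from the deposited FPKM values. They were low in the younger boars. The median member had 0.08, 0.08 and 0.08 FPKM in the Ha libraries and 0.05, 0.05 and 0.06 FPKM in the La libraries. At 120 days the medians were 1.52, 1.13 and 1.47 FPKM in Hb and 1.22, 1.11 and 1.19 FPKM in Lb. Members above 1 FPKM were 17.3% ± 1.09 of the 281 in Ha and 14% ± 2.17 in La (SD, n = 3). They were 58.7% ± 4.71 in Hb and 55.4% ± 1.48 in Lb (SD, n = 3).

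The median FPKM of class j was compared with that of the other classes within each library by an exact sign-flip permutation test, two-sided, with Benjamini-Hochberg adjustment over 4 classes. Class j was higher than class u by 0.140 FPKM on average, in 12 of 12 libraries (adjusted p 0.000977, from p 0.000488, the smallest the test can give). It was higher than class i by 0.147 FPKM, also in 12 of 12 libraries (adjusted p 0.000977). Among transcripts with a count in the library, the difference from class i missed the threshold, at 0.0808 FPKM (adjusted p 0.355; class j higher in 7 of 12 libraries). The difference from class x, 0.0433 FPKM, missed the threshold (adjusted p 0.124; class j higher in 10 of 12 libraries). It passed without replicate 2 of Hb (adjusted p 0.0286) or replicate 3 of Hb (adjusted p 0.0469). The medians of classes u, x and i were 0 in each 30-day library, so class j could not be lower there. That part of each test was fixed in advance. In the 120-day libraries the mean of the medians was 1.27 FPKM in class j, 1.06 in class u, 1.25 in class x and 1.05 in class i. Against class o the difference was 0.198 FPKM and also missed it (adjusted p 0.152). Here class j was lower in the 30-day libraries (mean of the medians 0.0667 against 0.228 FPKM) and higher in the 120-day libraries (1.27 against 0.715 FPKM).

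A single transcript had more counts than any other member in each library. MSTRG.12277.2, with 5 exons at chr7:78551518-78564042 on the plus strand, had 1263, 4489 and 4546 FPKM in Ha and 525, 1933 and 1093 FPKM in Hb. It had 2534, 2989 and 2074 FPKM in La and 1852, 2012 and 1484 FPKM in Lb. It was also the highest member by FPKM in each library, and the Ha and Hb libraries overlapped while the La and Lb libraries did not. Its candidate host was CCNB1IP1, listed as an lncRNA gene in the annotation used here and known by that symbol for a protein of meiotic crossing-over. The first exon of the transcript, chr7:78551518-78551967, lay outside the span of CCNB1IP1 (chr7:78553680-78576057), and the known isoforms of that gene summed to between 0.97 and 1.52 FPKM in the 12 libraries. The log2 fold change with age was −1.71 ± 0.66 (SE) in Hezuo (edgeR quasi-likelihood test, adjusted p 0.0585) and −0.73 ± 0.27 in Landrace (adjusted p 0.0433), and neither met both thresholds for a call. Whether all reads assigned to it came from this spliced transcript could not be checked with the files, and its level rests on that assignment.

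The share of lncRNA counts in class j depended on that transcript, which held from 2.53% (replicate 1 of Hb) to 22.52% (replicate 3 of Ha) of them. The share of the class was 10.2%, 24.0% and 24.3% in Ha, 10.4%, 14.9% and 12.8% in Hb, 14.4%, 16% and 15% in La, and 15.9%, 15.8% and 12.7% in Lb. The means were 17.3% ± 5.65 at 30 days and 13.7% ± 2.15 at 120 days (SD, n = 6), a difference of −3.57 percentage points (exact permutation test, two-sided, p 0.21). Within breeds the difference was −6.80 points in Hezuo (p 0.4) and −0.349 points in Landrace (p 0.8), where an exact permutation test of 3 against 3 libraries cannot go below p 0.1. Without MSTRG.12277.2 the share was 2.31% ± 0.131 at 30 days and 7.31% ± 0.580 at 120 days (SD, n = 6), and no library of one age reached the range of the other. That difference of 4.998 points had p 0.002165 by the exact permutation test, the smallest that 6 against 6 libraries can give.

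The other 7 of the 8 transcripts with the highest mean FPKM were far lower. They were MSTRG.23466.2 (mean over 12 libraries 42.8 FPKM), MSTRG.2826.5 (42.1), MSTRG.24700.1 (30.5), MSTRG.10418.1 (26.1), MSTRG.3691.2 (11.7), MSTRG.12337.2 (10.95) and MSTRG.14354.1 (10.6). MSTRG.3691.2, in the gene RFESD for a Rieske iron-sulfur domain protein at chr2:102243807-102254278 on the plus strand, was the exception to a strong rise with age. It had 7.85, 9.43 and 7.50 FPKM in Ha and 12.0, 6.66 and 13.4 FPKM in Hb, and these groups overlapped. In Landrace it had 9.21, 7.79 and 9.09 FPKM at 30 days and 23.1, 14.6 and 19.8 FPKM at 120 days, with no overlap, at a log2 fold change of 0.86 ± 0.28 (SE) that was below the threshold of 1.

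The comparison of ages within a breed asks which isoforms change between the prepubertal testis and the testis at 120 days. Expression was tested with edgeR's quasi-likelihood test on counts of all lncRNAs that passed a filter on low counts. Calls needed a p below 0.05 after Benjamini-Hochberg adjustment over all lncRNAs tested, and a log2 fold change beyond 1 in either direction. Fold changes are 120 days over 30 days, and levels are lncRNA counts brought to a common library size by TMM scaling over the 12 libraries (CPM). In bulk tissue, fewer cells of a type and less RNA per cell cannot be told apart. Members named for a comparison of ages or breeds were chosen among called members whose groups did not overlap. Their lack of overlap in that comparison is part of the choice and no further support.

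In Hezuo, 221 of the 281 members passed the filter and 60 did not. Of those tested, 152 were called higher at 120 days (68.8%), where 38.6% of all tested lncRNAs were, and 26 were called lower (11.8%), where 17.6% of all were. The median log2 fold change of the tested members was 4.01, or 3.85 with 36 members set to their lower bound, against 0.57 over all 2909 lncRNAs tested. In Landrace, 212 members passed and 69 did not. Here 157 were called higher (74.1%, against 41.8% of all tested) and 28 lower (13.2%, against 19.3%). The median was 3.81, also with 41 members at their bound, against 0.68 over all 2988 tested. A member silent at 30 days could pass the filter only through a high level at 120 days, so these counts describe the members and do not test them.

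The rise was not particular to class j among assembled transcripts. In Hezuo the called-higher members of class u were 279 of 352 tested, those of class x 163 of 197, those of class i 108 of 145 and those of class o 24 of 56. Known lncRNAs were called higher in 398 and lower in 395 of 1938 tested. In Landrace class u had 260 of 330, class x 162 of 198, class i 107 of 140, class o 24 of 61 and known lncRNAs 538 of 2047.

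Scaling mattered to the level of these values. With scaling factors of the mRNA table, the median log2 fold change of all tested lncRNAs moved from 0.57 to 1.27 in Hezuo and from 0.68 to 1.23 in Landrace. Called members then numbered 162 higher and 17 lower in Hezuo, and 162 higher and 14 lower in Landrace. The median of the tested members moved to 4.73 and 4.36.

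The 2 age comparisons share no library, so their calls can be set side by side. In both breeds 123 members were called higher and 16 were called lower, and none were called in opposite directions. Of the 187 members tested in both breeds these were 65.8%, 8.56% and 0%, and of all 2432 lncRNAs tested in both they were 34.6%, 12.6% and 0.206%. Another 39 were called in Hezuo only and 46 in Landrace only, and 57 were called in neither, of which 35 were tested in neither. A call in a single breed is no test of a difference between breeds. Among members called higher, 34 in Hezuo and 40 in Landrace had no count in any 30-day library of that breed.

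Marker genes of the mRNA table moved with age in the same libraries. Spermatid markers summed to 5.72, 7.02 and 6.73 FPKM in Ha and 10.8, 9.39 and 4.53 FPKM in La, and to 5280.0, 5793 and 7667 FPKM in Hb and 3909, 3342 and 3575 FPKM in Lb. Spermatocyte markers summed to 10.5, 10.96 and 6.50 FPKM in Ha, 5.40, 4.76 and 4.41 FPKM in La, 151, 157 and 134 FPKM in Hb and 116, 110.3 and 124 FPKM in Lb. Both lists were far higher in every 120-day library. In each 120-day library PRM1, for a protamine, was the highest of the spermatid list and PIWIL1, for a PIWI protein, the highest of the spermatocyte list. All 9 of the 10 spermatid genes that were tested and all 8 spermatocyte genes were called higher in both breeds. Spermatogonial markers summed to 76.0, 73.3 and 59.5 FPKM in Ha, 177, 182 and 173 FPKM in Hb, 41.2, 40.6 and 43.9 FPKM in La, and 155, 139.8 and 162 FPKM in Lb. Without DDX4 they summed to 69.3, 65.5 and 52.9 FPKM in Ha, 31.6, 48.2 and 35.4 FPKM in Hb, 37.2, 36.6 and 38.7 FPKM in La, and 45.5, 42.98 and 46.5 FPKM in Lb. Of the 11 genes, 3 were called higher and 6 lower in Hezuo, and 4 higher and 5 lower in Landrace.

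The sums of somatic markers went the other way. Sertoli cell markers, among them INHA and CLDN11, summed to 782, 751 and 973 FPKM in Ha, 181, 288 and 216 FPKM in Hb, 1508, 1770.0 and 1632 FPKM in La, and 311, 385 and 370.5 FPKM in Lb, with 4 of 8 called lower in each breed. Leydig cell markers, among them INSL3 and CYP17A1, summed to 5487, 5009 and 4883 FPKM in Ha, 2180.0, 189 and 128 FPKM in Hb, 7771, 5341 and 6281 FPKM in La, and 2708, 4057 and 1712 FPKM in Lb. Of these 7 genes, 4 were called lower in Hezuo and 5 in Landrace, and replicate 1 of Hb stood well above the other 2 Hb libraries. Peritubular and stromal markers, among them COL3A1 and ACTA2, summed to 976.5, 949.8 and 978 FPKM in Ha, 102, 101 and 66.5 FPKM in Hb, 1341, 1224 and 1512 FPKM in La, and 530.1, 516 and 562 FPKM in Lb. In Hezuo 8 of these 10 genes were called lower, and in Landrace 5 were called lower and 1 higher. ACTA2 went against its list in Landrace, with 71.6, 63.1 and 78.3 FPKM in La and 128, 129 and 207 FPKM in Lb. DES overlapped between the Landrace ages. Endothelial markers, with VWF the highest in each library, summed to 93.7, 94.5 and 84.3 FPKM in Ha, 13.9, 26.7 and 15.7 FPKM in Hb, 98.0, 78.3 and 91.0 FPKM in La, and 28.2, 45.7 and 28.6 FPKM in Lb. Macrophage markers, among them CSF1R and CD163, summed to 40.3, 32.7 and 32.6 FPKM in Ha, 3.49, 4.56 and 2.24 FPKM in Hb, 38.3, 33.0 and 36.3 FPKM in La, and 5.91, 9.64 and 9.91 FPKM in Lb. All 5 endothelial and all 5 macrophage genes were called lower in Hezuo, as were 3 and 4 of them in Landrace. The part of these cell types in the members' changes was not tested.

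Among the members called higher with the smallest adjusted p, MSTRG.23466.2 was near the detection limit at 30 days and abundant at 120 days. It has 2 exons at chr18:33068379-33070719 on the minus strand, inside LOC100519118, an lncRNA gene. It had 1.78, 0 and 0 CPM in Ha and 2936, 1852 and 2905 CPM in Hb. With 1 count over the Ha libraries the ratio was 4293, with a 95% counting interval from 770.1 to 169600 (adjusted p 0.000136). In Landrace it had 3.35, 1.94 and 0 CPM at 30 days and 1877, 1510.1 and 1478 CPM at 120 days, a ratio of 856 (95% counting interval 292.6 to 4153; adjusted p 1.48e-05). The ages were separated in both breeds by a wide gap, while the known isoform of its host stayed at or below 0.10 FPKM in the 12 libraries.

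MSTRG.10418.1 showed the same pattern beside a host that rose too. It has 5 exons at chr6:90433903-90440680 on the minus strand and runs past the 5′ end of LOC100736806, an lncRNA gene. It had 0, 5.37 and 5.24 CPM in Ha and 3776, 3166 and 3650.1 CPM in Hb, a log2 fold change of 9.84 ± 0.73 (SE; adjusted p 0.000165). In Landrace the values were 6.70, 3.88 and 8.58 CPM at 30 days and 2398, 2439 and 2068 CPM at 120 days, a log2 fold change of 8.46 ± 0.36 (adjusted p 1.09e-05). The known isoforms of the host were between 0.32 and 1.32 FPKM in the 30-day libraries and between 43.8 and 80.3 FPKM in the 120-day libraries.

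MSTRG.2734.2 lies at CCDC179, a gene for a coiled-coil protein, at chr2:36687541-36699188 on the plus strand. It had 1.78, 0 and 0 CPM in Ha and 841, 522 and 867 CPM in Hb, and with 1 count in Ha the ratio was 1242 (95% counting interval 222.6 to 49110; adjusted p 0.000156). In Landrace it had no count at 30 days and 484, 352 and 372 CPM at 120 days, at least 212.7-fold higher (adjusted p 6.8e-05). CCDC179 mRNA was listed at 0 FPKM in all 6 libraries of 30 days and had 2.25, 1.91 and 2.13 FPKM in Hb and 1.16, 1.47 and 1.55 FPKM in Lb. In Hb the member had the higher values, at 19.4, 12.0 and 22.2 FPKM.

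A pair of long isoforms at LOC110261160, an lncRNA gene, held many of the 120-day counts. MSTRG.10544.1, with 4 exons at chr6:97450865-97488758 on the plus strand, had 167, 252 and 24.5 CPM in Ha, 10303, 11629.5 and 8758 CPM in Hb, 43.5, 33.0 and 12.9 CPM in La, and between 10299 and 11205 CPM in Lb. Its log2 fold change was 6.09 ± 0.84 (SE; adjusted p 0.00108) in Hezuo and 8.44 ± 0.52 (adjusted p 1.69e-05) in Landrace. MSTRG.10544.2, with 2 exons at chr6:97459481-97478163, had 20.1, 3.88 and 15.01 CPM in La and 3064, 3735 and 2725 CPM in Lb (log2 fold change 7.90 ± 0.53; adjusted p 2.49e-05). The known isoforms of LOC110261160 stayed at or below 0.10 FPKM, far below the assembled isoforms at 120 days. The span of that gene (chr6:97460493-97488886) held 37.3% of the exonic bases of MSTRG.10544.1 and 85.1% of those of MSTRG.10544.2. Where along these transcripts the counts lie could not be read.

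MSTRG.5471.1 rose in both breeds from a higher start in Hezuo. It has 6 exons at chr3:81044177-81124399 on the minus strand, around LOC102167754, an lncRNA gene. It had 64.1, 55.5 and 33.2 CPM in Ha and 1454, 1159.8 and 1266 CPM in Hb, a log2 fold change of 4.63 ± 0.34 (SE; adjusted p 0.000165). In Landrace it had 1.67, 1.94 and 6.43 CPM at 30 days and 511, 654 and 607 CPM at 120 days, a log2 fold change of 7.45 ± 0.46 (adjusted p 1.69e-05). MSTRG.14354.1, with 6 exons at chr9:46590457-46638277 on the plus strand, spans THY1, a gene for a cell surface glycoprotein, and reaches into LOC102161478. It had 28.5, 25.1 and 19.2 CPM in Ha and 1477, 951 and 1515 CPM in Hb (log2 fold change 5.72 ± 0.36; adjusted p 0.000136). It had 8.37, 3.88 and 12.9 CPM in La and 1211, 1341 and 838 CPM in Lb (7.07 ± 0.44; adjusted p 1.80e-05), while THY1 mRNA fell by 3.48 in Hezuo and fell by 1.69 in Landrace on the log2 scale.

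The remaining members named for their rise did not overlap between ages either, as the rule for naming requires. MSTRG.9306.2 (LOC106510537) had 16.03, 25.1 and 17.5 CPM in Ha and 772, 732 and 738 CPM in Hb, and rose by 5.21 ± 0.32 (SE) on the log2 scale in Hezuo and by 5.61 ± 0.36 in Landrace. MSTRG.8970.2 (LOC106510490) had 3.56, 3.58 and 5.24 CPM in Ha and 727, 569 and 293 CPM in Hb, a log2 fold change of 6.88 ± 0.51. MSTRG.16692.2, in the span of KCNJ16, a potassium channel gene, and LOC102166398, had 1.78, 0 and 1.75 CPM in Ha and 1133, 1066 and 696 CPM in Hb, a ratio of 824.1 (95% counting interval 227.8 to 6810). In Landrace, MSTRG.24700.1, on an unplaced scaffold, had 11.7, 7.77 and 8.58 CPM at 30 days and 2029, 2303 and 2259 CPM at 120 days, a log2 fold change of 7.84 ± 0.34. In Hezuo the same transcript had 98.0, 124 and 5.24 CPM at 30 days, where replicate 3 was far below the other 2 libraries. Called members with more than 3 counts in each group had log2 fold changes from 1.10 to 9.84 in Hezuo (87 members) and from 1.35 to 8.46 in Landrace (92 members).

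Members called lower were fewer, were mostly detected at both ages and changed less. In Hezuo the 26 fell by 1.19 to 5.54 on the log2 scale, and in Landrace 27 of the 28, leaving out 1 with 3 counts or fewer in a group, fell by 1.19 to 4.51. MSTRG.10679.6, a 2-exon transcript at the lower end of the span of DTNA, a gene for a dystrobrevin of the dystrophin complex, lies at chr6:118333116-118339827 on the plus strand. It had 494, 575 and 484 CPM in Ha and 11.3, 49.3 and 64.5 CPM in Hb, a log2 fold change of −3.63 ± 0.61 (SE; adjusted p 0.00206). In Landrace it had 697, 625 and 474 CPM at 30 days and 83.1, 54.7 and 78.0 CPM at 120 days, −3.06 ± 0.33 (adjusted p 0.000197). DTNA mRNA was lower at 120 days as well, at −1.83 ± 0.26 in Hezuo and −1.96 ± 0.14 in Landrace.

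MSTRG.11277.15 lies in ATXN1, the gene for ataxin-1, at chr7:12688221-12721993 on the minus strand. It had 572, 707 and 731 CPM in Ha, 106, 179 and 95.9 CPM in Hb, 636, 777 and 485 CPM in La, and 146, 154 and 209.9 CPM in Lb. Each 30-day library was above each 120-day library, with log2 fold changes of −2.43 ± 0.34 (SE; adjusted p 0.00117) in Hezuo and −1.89 ± 0.32 (adjusted p 0.00123) in Landrace. ATXN1 mRNA changed by −1.72 ± 0.16 and −1.21 ± 0.13. MSTRG.12746.4 lies in PCGF3, which encodes a Polycomb RING finger protein, at chr8:140437-147919 on the plus strand. It had 907, 959.7 and 939 CPM in Ha, 225, 336 and 262 CPM in Hb, 1176, 1190.0 and 806 CPM in La, and 350.1, 288 and 360.3 CPM in Lb. It changed by −1.80 ± 0.28 in Hezuo and −1.67 ± 0.29 in Landrace, and PCGF3 mRNA was not called in either breed (−0.22 and 0.17). PCGF3 mRNA had 12.0, 13.3 and 11.4 FPKM in Ha and 5.75, 7.51 and 6.78 FPKM in Hb, lower without overlap in FPKM, and no change of usage was called for the member (adjusted p 0.274 in Hezuo and 0.065 in Landrace).

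Other members named for their fall followed the same order. MSTRG.22418.3 in SLC20A2, a phosphate transporter gene, had 830.2, 707 and 787 CPM in Ha and 162, 223 and 148 CPM in Hb, a log2 fold change of −2.15 ± 0.28 (SE). MSTRG.12456.4 in SYNJ2BP, a gene for a mitochondrial outer membrane protein, had 1762, 1594 and 1500.0 CPM in Ha and 359, 589 and 509 CPM in Hb, a log2 fold change of −1.76 ± 0.30. MSTRG.14833.1, in the span of KMT2E and LOC106504991, changed by −1.43 ± 0.24, and MSTRG.13094.3, in the span of FAM198B and LOC100516145, by −2.81 ± 0.40. In Landrace, MSTRG.6156.2, in the span of ZHX2 and LOC110260228, had 749, 1487 and 1737 CPM at 30 days and 61.3, 68.0 and 136 CPM at 120 days (−3.86 ± 0.46). MSTRG.5919.1 in FAM110C had 325, 975 and 1004 CPM in La and 59.9, 17.7 and 97.9 CPM in Lb (−3.67 ± 0.67), and MSTRG.8589.1 (LOC110260801) and MSTRG.835.16 (LOC102161909) changed by −2.34 ± 0.37 and −1.70 ± 0.26. None of these members overlapped between the ages of the breed for which it is named, as the rule for naming requires. The call of MSTRG.14833.1 was lost under limma on log2(FPKM + 1) and with the scaling of the mRNA table, and KMT2E mRNA was called higher in Hezuo (1.03, adjusted p 0.000159). Under limma on log2(FPKM + 1) the calls of MSTRG.22418.3 in Hezuo and of MSTRG.11277.15 and MSTRG.12746.4 in both breeds were lost too, as was the rise of MSTRG.9306.2 in Landrace.

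Just inside the threshold on adjusted p lay MSTRG.12058.2 in Hezuo (log2 fold change −1.59, adjusted p 0.0497) and MSTRG.15533.1 in Landrace (1.35, 0.0494). Just outside lay MSTRG.12277.2 in Hezuo (−1.71, 0.0585) and MSTRG.4669.2 in Landrace (−1.10, 0.0662).

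Members were set beside their hosts to see whether isoform and gene moved together. With a single coding host, 58 members in Hezuo had a test of member and host mRNA. Both were called higher in 19 and both lower in 5, which were MSTRG.10679.6 (DTNA), MSTRG.11277.15 and MSTRG.11277.16 (ATXN1), MSTRG.17394.7 (TLCD2) and MSTRG.18599.40 (MBNL1). In 10 the member was called higher and in 8 lower with no call for the host, in 6 the host alone was called, and in 6 neither was. In 4 the member was called higher and the host lower: MSTRG.18902.8 (SEMA5B), MSTRG.20334.23 (KCNMA1), MSTRG.20945.25 (GTDC1) and MSTRG.21690.2 (IRS1). In none was the member called lower and the host higher. Hosts with both calls higher included AVEN, an apoptosis inhibitor gene, NMNAT2 of NAD synthesis, AGBL3, for a carboxypeptidase of tubulin, and RLN3, for relaxin 3. Members here outside those named by rule were chosen after their values were seen.

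In Landrace, 54 such members had both tests. Both were called higher in 17 and both lower in 5, which were MSTRG.5919.1 (FAM110C), MSTRG.10679.6 (DTNA), MSTRG.11277.15 and MSTRG.11277.16 (ATXN1) and MSTRG.17394.6 (TLCD2). The member alone was called higher in 15 and lower in 8, the host alone was called in 2, MSTRG.15330.2 (LOC106505107) and MSTRG.16831.4 (DBF4B), and neither in 4. A member called higher with the host lower was seen in 3: MSTRG.8342.1 (ADA2), MSTRG.18902.8 (SEMA5B) and MSTRG.20334.23 (KCNMA1). Among the 56 coding host genes tested in each breed, 22 were called higher and 11 lower in Hezuo, where 28.2% and 23.2% of all mRNAs were. In Landrace 20 were called higher and 9 lower, where 27.5% and 20.1% of all mRNAs were.

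With an lncRNA host, the member and a known isoform were both tested for 68 members in Hezuo and 65 in Landrace. The member and a known isoform were both called higher for 32 and 39. Of all known lncRNAs tested, 20.5% in Hezuo and 26.3% in Landrace were called higher. The share of such joint calls over all genes was not taken. Both were called lower for MSTRG.24113.3 in Hezuo, and for MSTRG.24113.2, MSTRG.24113.3, MSTRG.835.16, MSTRG.19249.3 and MSTRG.19249.4 in Landrace. The member was called with no call for a known isoform for 17 and 13. Member higher and a known isoform lower was found for MSTRG.14811.5 and MSTRG.22055.9 in Hezuo and for MSTRG.15958.1 in Landrace. No known isoform was tested for another 41 and 47.

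Per length, more members exceeded their hosts at 120 days than at 30 days, and this difference was not tested. With a coding host, the member had the higher mean FPKM for 20 of 77 in Ha and 37 in Hb, and for 15 in La and 29 in Lb. The median member of this group had 0.187 FPKM in Ha against 1.48 for the host, and 1.98 FPKM in Hb against 1.90. In Landrace the medians were 0.127 against 1.09 FPKM at 30 days and 1.38 against 1.84 FPKM at 120 days. With an lncRNA host, the member was higher than the sum of the known isoforms for 46 of 135 in Ha, 79 in Hb, 43 in La and 78 in Lb.

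Change of usage was tested directly with edgeR's differential splicing test, which asks whether a transcript changes apart from all features of its gene. The value is a log2 difference between the change of the member and the change of the gene. Where a member had no single candidate host, its gene of the assembly was used, so such members were not compared with a host. In Hezuo 160 members were tested: 34 were called with higher usage at 120 days, where 4.64% of all 1315 tested features were, and 3 with lower usage, where 2.51% were. In Landrace 150 were tested: 30 were called higher (against 4.22% of all 1351 tested features) and 4 lower (against 2.37%). Higher usage was called in both breeds for 23 of the 129 members tested in both (17.8%), and for 32 of all 1021 features tested in both (3.13%). Of the calls for higher usage, 25 in Hezuo and 24 in Landrace had a coding host. In a gene with only 2 features a rise of one is a fall of the other, and 24 calls in Hezuo and 23 in Landrace came from such genes. Here too a member silent at 30 days could pass the filter only through its level at 120 days. The counts of usage calls therefore describe the members and do not test them.

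MSTRG.20945.25 lies inside GTDC1, a gene for a glycosyltransferase-like protein, at chr15:8090263-8144489 on the plus strand, with 4 exons. It had 0.08, 0.00 and 0.02 FPKM in Ha and 22.1, 15 and 20.6 FPKM in Hb, while GTDC1 mRNA had 10.3, 9.15 and 9 FPKM in Ha and 2.79, 3.46 and 2.58 FPKM in Hb. The order of member and host was thus reversed between ages in each Hezuo library, with a log2 difference in usage of 9.01 (adjusted p 5.31e-07). In Landrace the member had 0.09, 0.00 and 0.03 FPKM at 30 days and 14, 3.61 and 7.89 FPKM at 120 days, against 10.6, 10.5 and 11.5 and then 6.13, 3.52 and 4.87 FPKM for the mRNA. The usage difference there was 8.19 (adjusted p 3.46e-05), and the member exceeded the host in all 3 Lb libraries. GTDC1 mRNA was called lower in Hezuo (−1.19) and not in Landrace (−0.85).

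KCNMA1 encodes the pore-forming subunit of a large-conductance calcium-activated potassium channel. MSTRG.20334.23, with 2 exons at chr14:79352795-79363086 on the minus strand, had 3.56, 5.37 and 3.50 CPM in Ha and 169, 226 and 223 CPM in Hb. KCNMA1 mRNA fell from 15.6, 16.5 and 20.5 FPKM in Ha to 3.67, 4.32 and 5.08 FPKM in Hb. The usage difference was 7.37 in Hezuo (adjusted p 5.85e-06) and 6.50 in Landrace (adjusted p 0.000366). Likewise MSTRG.18902.8 in SEMA5B, a semaphorin gene, at chr13:137553599-137562315 on the plus strand, had 1.78, 1.79 and 1.75 CPM in Ha and 280, 345 and 202 CPM in Hb. With 3 counts in Ha that ratio was 157.6 (95% counting interval 53.64 to 766.8; adjusted p 0.000136), while SEMA5B mRNA fell by 1.51 on the log2 scale. These ages did not overlap for either member or either mRNA.

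MSTRG.2826.5 and MSTRG.1686.1 gained usage beside a host that was not called in either breed. MSTRG.2826.5 extends past ZBED5, a gene for a BED zinc finger protein, at chr2:48625207-48656853 on the plus strand. It had 335, 319 and 131 CPM in Ha, 3296, 2469 and 2619 CPM in Hb, 121, 148 and 176 CPM in La, and 2778, 1421 and 2319 CPM in Lb. ZBED5 mRNA had 15.7, 14.9 and 14.3 FPKM in Ha, 12.8, 11.8 and 11.5 FPKM in Hb, 14.2, 15.2 and 15.1 FPKM in La, and 10.2, 10.2 and 12.8 FPKM in Lb, lower at 120 days without overlap in FPKM. After scaling of counts its log2 fold change was 0.18 in Hezuo (adjusted p 0.303) and −0.15 in Landrace (adjusted p 0.277). The usage difference was 3.37 in Landrace (adjusted p 9.33e-06) and 2.65 in Hezuo (adjusted p 0.000309). MSTRG.1686.1 in TOMM5, a gene for a subunit of the mitochondrial import channel, at chr1:238328894-238332620 on the minus strand, had 3.35, 3.88 and 0 CPM in La and 343, 220.4 and 219.8 CPM in Lb. Its usage difference was 6.38 in Landrace (adjusted p 2.22e-05), where TOMM5 mRNA had 36.0, 31.8 and 31.6 FPKM at 30 days and 34.7, 33.9 and 34.7 FPKM at 120 days. In Hezuo the difference was 6.36 (adjusted p 0.00026), where TOMM5 mRNA had 44.1, 42.3 and 38.96 FPKM at 30 days and 25.6, 30.4 and 27.1 FPKM at 120 days, lower without overlap in FPKM, with a log2 fold change of −0.10 (adjusted p 0.515). MSTRG.22055.9 at LOC102161888 had no count in Ha and 41.8, 25.4 and 43.6 CPM in Hb, at least 20.57-fold higher. Known isoforms of its host summed to 2.42, 3.17 and 3.29 FPKM in Ha and to 1.73, 2.06 and 1.76 FPKM in Hb, so the host was lower at 120 days without overlap. Higher usage was called (adjusted p 5.31e-07), but no size is given because Ha was at 0, and the call was lost with all 12 libraries in 1 fit.

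LOC106510537, an lncRNA gene at chr6:46668500-46700334, holds 4 members on the plus strand, of which 3 rose to different degrees. The other, MSTRG.9306.5, had 0.51 FPKM in replicate 1 of Hb, 0 in the other 11 libraries and no test, and was chosen after its values were seen. MSTRG.9306.4 had 0 CPM in each La library and 1144, 988 and 888 CPM in Lb, at least 530.8-fold higher, and its usage was called higher (adjusted p 8.29e-07), with no size given because La was at 0. In Hezuo its usage difference was 1.70 (adjusted p 0.00657). MSTRG.9306.3 had 92.1, 67.9 and 66.5 CPM in La and 649.9, 491 and 550.3 CPM in Lb. It rose less than the gene did, with a usage difference of −1.64 in Landrace (adjusted p 0.00091) and −1.35 in Hezuo (adjusted p 0.0381). The Hezuo call was lost with no filter, with replicate number as a block and without any 1 of the 6 libraries, in the last case at adjusted p from 0.0765 to 0.227. The exon chr6:46675046-46675199 is the same in all 4 members.

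Lower usage was also called for MSTRG.17394.7 (TLCD2) in Hezuo, at −2.89 (adjusted p 0.00236). MSTRG.21071.6 in DLGAP2, a gene for a synaptic scaffold protein, had 51.7, 46.6 and 40.2 CPM in Ha and 3.22, 12.0 and 5.23 CPM in Hb, with a usage difference of −2.98 (adjusted p 0.00798). Without replicate 2 of Ha, replicate 1 of Hb or replicate 3 of Hb its adjusted p was above 0.05, with a highest value of 0.108, and the call was also lost with no filter and with the block. In Landrace the 4 calls were MSTRG.9306.3, MSTRG.15575.19 in the zinc finger gene ZNF438 (−2.93, adjusted p 0.00357), MSTRG.9210.2 in LOC102159288 (−2.18, adjusted p 0.00731) and MSTRG.19249.3 in LOC102166913 (adjusted p 0.0204; 3 counts in Lb). The last was chosen after its values were seen, as was MSTRG.9210.1. That transcript is the other of the 2 features tested for LOC102159288, and its usage was called higher in Landrace (3.27, adjusted p 0.000744). The fall of MSTRG.9210.2 is therefore the same shift seen from the other side. The call for MSTRG.15575.19 was lost without replicate 1 of Lb (adjusted p 0.0614), and that for MSTRG.9210.2 without replicate 1 of La or replicate 2 or 3 of Lb (highest adjusted p 0.121), with no filter and with the block.

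The comparison of breeds at 30 days asks whether testes of the early-maturing breed already differ before puberty. Fold changes are Landrace over Hezuo. At this age 87 members passed the filter and 194 did not. Called members were 3 higher in Landrace (2.62% of all 2096 tested lncRNAs were) and 7 lower (3.72% were). The median log2 fold change of the tested members was −0.26, against −0.03 over all tested. This comparison shares its libraries with the age comparisons. Marker sums differed between breeds at this age too. Sertoli cell markers had 751 to 973 FPKM in Ha and 1508 to 1770 FPKM in La, and peritubular and stromal markers were also lower in Ha. These sums stayed lower in Ha without INHA or COL3A1, but not every gene followed. ACTA2 went against its list, with 102, 119 and 116 FPKM in Ha and 71.6, 63.1 and 78.3 FPKM in La. CLDN11, WT1, DHH, SOX9 and MYH11 overlapped between the breeds. Spermatogonial and spermatocyte markers were higher in every Ha library than in any La library, and the other lists overlapped. The part of cell types in these calls was not tested.

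A pair of isoforms of TLCD2, a gene for a TLC domain membrane protein, stood in opposite relation between breeds. MSTRG.17394.7, with 4 exons at chr12:47910648-47918257 on the minus strand, had 326, 315 and 343 CPM in Ha and 0 CPM in each La library, at least 172.6-fold lower in Landrace (adjusted p 0.00145). MSTRG.17394.6, with 3 exons at chr12:47910053-47917554, had 51.7, 51.9 and 45.5 CPM in Ha and 638, 287 and 498 CPM in La, a log2 fold change of 3.21 ± 0.36 (SE; adjusted p 0.00547). The breeds did not overlap for either isoform, as the rule for naming requires. Each call held without any 1 of the 6 libraries but was lost with replicate number as a block, as was every call of this comparison. TLCD2 mRNA itself overlapped, at 0.76, 0.52 and 0.61 FPKM in Ha and 0.73, 0.87 and 0.61 FPKM in La. Both isoforms contain the exon chr12:47913279-47913443. Where MSTRG.17394.6 has a single exon chr12:47910053-47911125, MSTRG.17394.7 has 2, chr12:47910648-47910805 and chr12:47910946-47911125, and its other outer exon ends at 47918257 in place of 47917554. At 120 days MSTRG.17394.7 had 8.04, 4.48 and 8.72 CPM in Hb and 0, 0 and 9.93 CPM in Lb, and MSTRG.17394.6 had 43.4, 7.47 and 8.72 CPM in Hb and 87.2, 180.4 and 44.0 CPM in Lb.

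LOC102166913, an lncRNA gene on chromosome 13, also held a pair of isoforms, on the minus strand and both higher in Landrace. MSTRG.19249.3, with 3 exons at chr13:203254902-203273538, had 0 CPM in each Ha library and 132, 190.2 and 240.2 CPM in La, at least 103.3-fold higher (adjusted p 0.00538). MSTRG.19249.4, with 5 exons at chr13:203254902-203262337, had 0, 3.58 and 3.50 CPM in Ha and 109, 97.1 and 137 CPM in La, a log2 fold change of 5.43 ± 0.70 (SE; adjusted p 0.00833). Known isoforms of the gene summed to 0.60, 0.70 and 0.15 FPKM in Ha and 3.68, 3.56 and 3.89 FPKM in La, so all 3 measures of the locus were separated by breed. Both calls held without any 1 library and were lost with the block. In Landrace MSTRG.19249.3 then fell to 2.72, 1.48 and 0 CPM at 120 days, a ratio of 129.1 with 3 counts in Lb (95% counting interval 43.73 to 629.6; adjusted p 0.00014), and in Hezuo its counts were 0 but for 0.38 in replicate 1 of Hb.

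The other members lower in Landrace at 30 days depended more on single libraries or settings. MSTRG.2425.12 at LOC100627892 had 90.9, 35.8 and 66.4 CPM in Ha and no count in La, at least 33.9-fold lower (adjusted p 0.0144). MSTRG.5471.1 had 64.1, 55.5 and 33.2 CPM in Ha and 1.67, 1.94 and 6.43 CPM in La, a log2 fold change of −3.93 ± 0.63 (SE; adjusted p 0.0157). MSTRG.15102.2 at LOC102159985 had 80.2, 118 and 108 CPM in Ha and 0, 9.71 and 10.7 CPM in La, a log2 fold change of −3.96 ± 0.85 (adjusted p 0.0415). These groups did not overlap, as the rule for naming requires. MSTRG.18955.8 at LOC106505799 changed by −1.60 ± 0.26 (adjusted p 0.0172) and MSTRG.19427.2 at LOC100737977 by −1.75 ± 0.34 (adjusted p 0.0299). The seventh, MSTRG.16330.1 (−1.21, adjusted p 0.0415), lay just inside the threshold, and MSTRG.16424.1 (−1.19, adjusted p 0.0518) just outside.

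Calls at 30 days numbered 4 without replicate 1 of Ha, 5 without replicate 2 of Ha, 6 without replicate 2 of La, 6 without replicate 3 of La, and 7 without replicate 3 of Ha or replicate 1 of La. The highest adjusted p on leaving out 1 library was 0.0654 for MSTRG.2425.12 (without replicate 1 of Ha or replicate 3 of La it was above 0.05), 0.0851 for MSTRG.5471.1 and 0.141 for MSTRG.15102.2. For MSTRG.18955.8 and MSTRG.19427.2 each such fit gave an adjusted p above 0.05, up to 0.0793 and 0.113.

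Spermatid markers were high in both breeds at 120 days, but marker sums differed between breeds. Those of spermatogonia, spermatocytes and spermatids were higher in every Hb library than in any Lb library. Without DDX4 the spermatogonial sums overlapped, at 31.6, 48.2 and 35.4 FPKM in Hb and 45.5, 42.98 and 46.5 FPKM in Lb. Spermatocyte sums overlapped without PIWIL1, at 53.75, 57.1 and 49.3 FPKM in Hb and 46.3, 37.9 and 49.5 FPKM in Lb. KIT and SYCP3 went against these lists, lower in every Hb library than in any Lb library. Sertoli, peritubular and stromal, endothelial and macrophage sums were lower in Hb, and Leydig sums overlapped. Peritubular and stromal markers had 66.5 to 102 FPKM in Hb and 516 to 562 FPKM in Lb. The part of cell types in the breed calls was not tested. At this age 248 members passed the filter and 33 did not. Called members were 5 higher in Landrace (1.53% of all 3213 tested were) and 7 lower (1.62% were), and the median log2 fold change was −0.16 against 0.01 over all tested. MSTRG.7454.1, which spans LOC102161421 at chr5:4219476-4222502 on the plus strand, had 907, 568 and 680.1 CPM in Hb and 165, 177 and 160.3 CPM in Lb. All Hb libraries were above all Lb libraries, with a log2 fold change of −2.01 ± 0.24 (SE; adjusted p 0.0132). MSTRG.15102.2, one of the 2 members called in both breed comparisons, had 40.2, 49.3 and 47.1 CPM in Hb and 1.36, 0 and 0 CPM in Lb, a ratio of 96.45 with 1 count in Lb (95% counting interval 16.85 to 3854; adjusted p 0.0185). It lies at chr9:133141325-133144534 on the plus strand, and it was low in both Landrace groups.

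The other member called in both, MSTRG.5471.1, lay just inside the threshold here (−1.04, adjusted p 0.0468), and MSTRG.18955.8 just outside (−1.95, adjusted p 0.0505). MSTRG.4761.2 in BFAR, a gene for an apoptosis regulator, had 393, 206 and 259.8 CPM in Hb and 65.4, 71.0 and 79.4 CPM in Lb (log2 fold change −1.89 ± 0.31; adjusted p 0.0301). BFAR mRNA had 12.0, 10.2 and 12.0 FPKM in Hb and 12.8, 8.34 and 9.53 FPKM in Lb, and these overlapped where the member did not. MSTRG.20094.1, which has no candidate host, had 167, 88.2 and 115 CPM in Hb and 21.8, 13.3 and 5.67 CPM in Lb (−3.07 ± 0.55; adjusted p 0.0359). MSTRG.12410.2 at LOC110261688 had 418, 317 and 314 CPM in Hb and 98.1, 34.0 and 35.5 CPM in Lb (−2.56 ± 0.47; adjusted p 0.04).

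Members higher in Landrace at 120 days were at or below 379 CPM in each library of that age. MSTRG.322.4 at LOC102157594 had 24.1, 37.4 and 29.6 CPM in Hb and 138, 300.2 and 379 CPM in Lb, a log2 fold change of 3.23 ± 0.49 (SE; adjusted p 0.0255). MSTRG.16105.1 at LOC102161217 had 1.61, 0 and 0 CPM in Hb and 42.2, 25.1 and 35.5 CPM in Lb, a ratio of 64.33 with 1 count in Hb (95% counting interval 11.19 to 2575; adjusted p 0.0273). Neither pair of groups overlapped, as the rule for naming requires. MSTRG.23494.7 at LOC102161969 had no count in any Hezuo library of either age and 31.3, 65.1 and 24.1 CPM in Lb, at least 24.68-fold higher (adjusted p 0.0366). MSTRG.23502.4, in the span of LOC102163798 and BMPER, changed by 3.42 ± 0.55 (adjusted p 0.0301), and MSTRG.15996.2, in the span of LOC110255744 and LOC106507939, by 2.92 ± 0.55 (adjusted p 0.0431).

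These calls depended on single libraries. Without replicate 1, 2 or 3 of Hb, 1, 3 and 2 members were called, and without replicate 1, 2 or 3 of Lb, 2, 0 and 1 were. Each of the 11 members named for this comparison lost its call without at least 1 library, and all 11 lost it with replicate number as a block. Under another tool, filter, scaling or fit 9 of the 11 lost it too, and MSTRG.15102.2 and MSTRG.20094.1 kept it. MSTRG.7454.1 and MSTRG.12410.2 lost it with all 12 libraries in 1 fit, and MSTRG.4761.2 there and under both limma fits. The highest adjusted p was 0.0737 for MSTRG.7454.1, 0.0891 for MSTRG.15102.2, 0.0951 for MSTRG.322.4 and 0.183 for MSTRG.15996.2.

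Whether the change with age differs between breeds was tested as an interaction of breed and age in edgeR's quasi-likelihood fit of all 12 libraries. Of 257 members tested, 0 were called, against 0.0257% of all 3886 tested lncRNAs. At an unadjusted p under 0.05 there were 21 members (8.17%), against 443 of all 3886 (11.4%), and DESeq2 called 6. The member nearest the threshold was MSTRG.9353.5, in the span of LRFN1 and LOC102160572 at chr6:47971980-47976497 on the plus strand (adjusted p 0.0546), for which no size is given because La was at 0. It rose by 4.24 on the log2 scale in Hezuo and at least 149.5-fold in Landrace, and was chosen after its values were seen. It had 14.3, 19.7 and 13.99 CPM in Ha, 277, 344 and 316 CPM in Hb, 0 CPM in each La library and 267, 396 and 194 CPM in Lb, so the breeds overlapped at 120 days and not at 30 days. Without replicate 3 of Ha 4 members were called: MSTRG.9353.5 and MSTRG.9306.4 (each adjusted p 0.0252, with La at 0), MSTRG.5471.1 (3.04, adjusted p 0.0252) and MSTRG.24700.1 (4.06, adjusted p 0.000809). For MSTRG.24700.1 that library was the one far below the other Ha libraries. For MSTRG.19249.3 edgeR gave no usable estimate, as the rounded counts of both Hezuo groups were 0, while it is among the 6 that DESeq2 called (adjusted p 0.0332). The smallest DESeq2 adjusted p of these 6 was 0.000608, for MSTRG.17394.7 with La at 0, where the edgeR test gave 0.101.

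The primers of the study include those for MSTRG.189 and MSTRG.12845, assembled genes that hold class j members. They also include LOC102165633, the candidate host of MSTRG.24113.2 and MSTRG.24113.3, and LOC102166108, that of MSTRG.15087.2; these 3 members were chosen after their values were seen. MSTRG.189.1 has 5 exons at chr1:18293873-18329596 on the minus strand and runs past the 3′ end of LOC100522716, an lncRNA gene. It had 87.3, 93.1 and 175 CPM in Ha, 346, 372 and 209 CPM in Hb, 41.9, 33.0 and 62.2 CPM in La, and 109, 148 and 106 CPM in Lb. It rose with age in both breeds without overlap, by 1.33 ± 0.40 (SE, log2; adjusted p 0.0247) in Hezuo and 1.43 ± 0.38 (adjusted p 0.0114) in Landrace. Each Hezuo library was above each Landrace library of its age, but the breed difference missed the threshold at 30 days (−1.41, adjusted p 0.102) and at 120 days (−1.27, adjusted p 0.0938).

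MSTRG.12845.3 and MSTRG.12845.4 have 5 exons each on the minus strand and share their lower end, chr8:4723595, in the span of the lncRNA genes LOC102164323 and LOC102167696. They differ most in the second exon by position, chr8:4725243-4725759 in MSTRG.12845.3 and chr8:4725626-4725759 in MSTRG.12845.4. Neither had a count in any 30-day library. MSTRG.12845.3 had 296, 247 and 167 CPM in Hb and 81.7, 62.1 and 49.6 CPM in Lb, at least 134.6-fold above Ha (adjusted p 0.000486) and at least 34.08-fold above La (adjusted p 0.000506). MSTRG.12845.4 had 386, 263 and 216 CPM in Hb and 183, 50.3 and 38.3 CPM in Lb. Both isoforms were higher in every Hb library than in any Lb library, and the difference was called for MSTRG.12845.3 (−1.78 ± 0.33; adjusted p 0.043) and not for MSTRG.12845.4 (−1.58 ± 0.61; adjusted p 0.24). The call for MSTRG.12845.3 was lost without any 1 of the 6 libraries (adjusted p 0.059 to 0.161), under both limma fits, with no filter, with all 12 libraries in 1 fit and with the block, so it does not set the 2 isoforms apart. The primers for the 2 assembled genes are shown because these genes hold members. Which isoforms they amplify could not be placed without a genome sequence.
MSTRG.189 forward: ttggctttggtgaaactggt
MSTRG.189 reverse: cctcgtttatgggcgtgtta
MSTRG.12845 forward: tgaccacaggagacgggaa
MSTRG.12845 reverse: cagcacagaggcaagcacg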

How the data were processed

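The authors' tables hold estimated counts and FPKM for each transcript; their notes name fastp 0.18.0, Bowtie2 2.2.8, HISAT2 2.1.0 and StringTie 1.3.4, and positions come from their file of assembled lncRNAs on Sscrofa11.1. Counts were rounded and tested with edgeR 4.0.16 in R 4.3.3 (filterByExpr with a minimum count of 10, TMM scaling within the lncRNA table, quasi-likelihood test), with Benjamini-Hochberg adjustment over all lncRNAs tested. Host mRNAs were tested the same way in the mRNA table. The SE of a log2 fold change is its size over the square root of F. Usage was tested with diffSpliceDGE on mRNAs and lncRNAs grouped by single candidate host, or by gene of the assembly where a member had no single candidate. DESeq2 1.42.0 and limma 3.58.1 were alternatives. Exact permutation tests used scipy 1.17.1 and numpy 2.4.6. Hosts were assigned by position, in place of the shared introns first planned, because the reference tables hold no exons; they hold no strands either, so strand was not used.

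Named members are those called without overlap of groups and with the smallest adjusted p, up to 8 per direction for age, 6 for breed and 3 for usage or interaction; the 8 with the highest mean FPKM; and those the study names. Members and lists were chosen with earlier results of these data known.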

Additional observations from a re-analysis of the deposited data

How the results depend on the processing

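Counts of members called with age stayed within 1.5 times the reported ones under every alternative run: 132 to 196 in Hezuo (178 reported) and 131 to 212 in Landrace (185 reported). These alternatives were DESeq2, limma on log2 FPKM with a pseudocount of 1 or 0.1, no filter, a stricter filter, the scaling of the mRNA table, 1 fit of all 12 libraries, replicate number as a block, and leaving out 1 library. At 30 days the 10 calls between breeds became 6 with limma and a pseudocount of 1, 0 with the block, and 4 to 7 without 1 library. At 120 days the 12 calls became 28 with DESeq2, 6 with limma and a pseudocount of 1, 6 with all libraries in 1 fit, 0 with the block, and 0 to 3 without 1 library. The block uses up residual degrees of freedom. Correlations of residuals between libraries of the same number lay between −0.0369 and 0.0363 for lncRNAs. Between libraries of different numbers they lay between −0.0817 and 0.054. These values cover lncRNAs as a whole, so they cannot show whether replicate number matters for the few members called. The 0 interactions became 6 with DESeq2, 1 each with no filter, the stricter filter (10 counts in every library of a group) and the scaling of the mRNA table, and 0 to 4 without 1 library. With both filter changes and the mRNA scaling the single call was MSTRG.9353.5, which DESeq2 also called. Usage calls in Landrace rose from 34 to 52 where members with several candidate hosts were given the one that holds most of their exonic bases, and members with a coding host rose from 77 to 118 when any candidate counted. Both alternatives were added after seeing the data. The planned use of any reference gene sharing an intron could not be run. The share of counts in class j changed by −14.82 points (p 0.008658) among assembled lncRNAs and reversed to 4.998 points (p 0.002165) without MSTRG.12277.2, and ran from −5.003 points without Ha replicate 1 to −2.184 points without Ha replicate 3. As a share of the counts of mRNAs and lncRNAs together it changed by −0.01197 points (exact permutation test, p 0.8788). In Landrace alone that share rose by 0.0711 points (p 0.2). The difference in median FPKM from class x passed the threshold among transcripts with a count in the library (0.05625) and those with a mean FPKM over 0.1 (0.06833), and ran from 0.03136 without Hb replicate 1 to 0.05773 without Hb replicate 2, past the threshold without Hb replicate 2 or 3. Among transcripts with a count, the difference from class i missed the threshold (0.08083) and that from class o reversed (−0.1938). Except where the construction of an alternative shows it, the cause was not tested. For named members 704 of 861 values under alternatives were the same in direction and side of the threshold, 156 were weaker, 1 moved and 0 reversed.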
